A study of Mus musculus with 70 samples.

Results

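Common innate lymphoid progenitors (CILP) from mouse bone marrow were compared between mice lacking Tcf7 and wild-type mice. Tcf7 encodes TCF-1, an HMG-box transcription factor that binds DNA together with β-catenin or Groucho (TLE) proteins. In the lymphoid system TCF-1 is known for its part in the specification of T cells and of innate lymphoid cells (ILC), the lymphocytes that lack rearranged antigen receptors. Bcl11b and Gata3 are among the genes it is known to act on in T cell precursors. All libraries with the cell type label CILP and a wild-type or Tcf7 source label were taken, 13 of the 70 samples of the series. These do not include a wild-type library that the submitters call an outlier. The counts of 2 technical repeats were summed with those of the library they repeat. This left 4 knockout libraries and 7 wild-type libraries.

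Each sample held 100 cells sorted into lysis buffer, and counts came from CEL-seq, which counts 3′ tags of polyadenylated transcripts. Knockout libraries 1 and 2 and wild-type libraries 1 to 4 belong to the batch labelled 2, and knockout libraries 3 and 4 and wild-type libraries 5 to 7 to the batch labelled 1. The design text calls the knockout mice TCF7-/-, and the allele, the exons removed, the animals' age and the sort gates are not given in the sources used here. No label ties a library to an animal, so p-values measure the spread between libraries, which may be technical. Library numbers only name libraries.

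Gene counts totalled 44089, 432561, 63853 and 49365 in knockout libraries 1 to 4. The wild-type libraries held 42266 to 624668 (median 149467). Values below are counts per 1e6 (CPM) on totals scaled by TMM, a correction for composition. Library pairs within the knockout group differed by 12.5 to 20.4 times the sampling noise of their counts (6 pairs), and wild-type pairs by 5.06 to 17.2 times (21 pairs).

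Tcf7 itself was low in the knockout libraries but not at 0 in all of them. It was at 0, 63.4, 25.5 and 35.6 CPM in knockout libraries 1 to 4, from 0, 20, 2 and 2 counts. In wild-type CILP it ranged from 166 to 779 CPM (median 384.6). All 4 knockout libraries lay below all 7 wild-type libraries. The mean log2(CPM + 1) of the knockout minus that of the wild type was −4.59, with p = 0.00303 in an exact 2-sided permutation test over 330 arrangements, the smallest p these group sizes allow. Exchanging labels only within a batch gave p = 0.00667 over 150 arrangements, again the smallest possible. In edgeR's quasi-likelihood test across all genes Tcf7 did not pass (log2 fold change −3.55 ± 1.14 SE, adjusted p = 0.157). The log2 fold change of Tcf7 passed in 3 of 12 other settings (adjusted p up to 0.966). These were DESeq2 (adjusted p = 0.049), limma-voom (0.0104) and the fit of only the compared groups (0.044). It passed in 0 of 11 edgeR fits that each left out 1 library (adjusted p up to 0.459). Since a 3′ tag outside a deleted part would still be read, the remaining counts do not by themselves check the label.

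Knockout libraries 1 and 4 stood apart from the other knockout libraries. Myeloid markers (S100a8, S100a9, Camp, Ngp and 15 others) took 1.2% of the counts in each of them. The share was 0.104% in knockout library 2, 0 in knockout library 3, and 0.000632% to 0.17% in wild-type CILP. Erythroid and megakaryocyte markers took 1.34% and 3.94% in libraries 1 and 4, against 0.186% and 0.0407% in libraries 2 and 3 and at most 0.152% in the wild type. Elane and Prtn3, markers of granulocyte precursors, and Pf4, a platelet marker, were at 0 counts in all 11 libraries. Camp had 23 and 108 counts in knockout libraries 1 and 4 and 1 in wild-type library 7. Ctsg had 10 counts in knockout library 2 and 6 in wild-type library 5, which also had 11 of Mpo. Ltf had 10 and 25 counts in knockout libraries 1 and 4 and 57 in wild-type library 1. Mitochondrial transcripts, by contrast, were lowest in library 3, at 1.83%, 2.11%, 0.268% and 0.8% of counts in knockout libraries 1 to 4 against 1.06% to 2.57% in the wild type. None of 17 myeloid markers tested was called, and 1 of 14 erythroid markers, Hba-a1, was called higher. Il7r, which encodes the interleukin-7 receptor α chain, was at 60 and 266.8 CPM in libraries 1 and 4. It was at 2012.6 and 1850.7 CPM in libraries 2 and 3 and at 920.3 to 3132.1 CPM (median 1224) in the wild type. Across genes, Spearman correlations of log2(CPM + 1) with the 7 wild-type libraries were 0.314 to 0.41 for library 1 and 0.339 to 0.451 for library 4. They were 0.49 to 0.69 for library 2 and 0.425 to 0.599 for library 3, over the 10972 genes tested, and depth differs between these libraries. The part of these differences in the results was not tested, so results are also given without libraries 1 and 4. In sorted pools of cells, fewer cells of a type and less RNA per cell cannot be told apart.

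Markers of CILP were checked in the wild type against wild-type common lymphoid progenitors (CLP), the stage before CILP. Gata3 was at 2120 ± 1230 CPM in CILP and 112 ± 212 CPM in CLP (mean ± SD), and Zbtb16 at 339 ± 111 and 1.04 ± 2.96 CPM. Flt3, which marks CLP, was at 3.72 ± 9.84 CPM in CILP and 401 ± 147 CPM in CLP, and Ebf1 at 0.531 ± 1.41 and 56.7 ± 76.4 CPM.

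**Figure D1:**
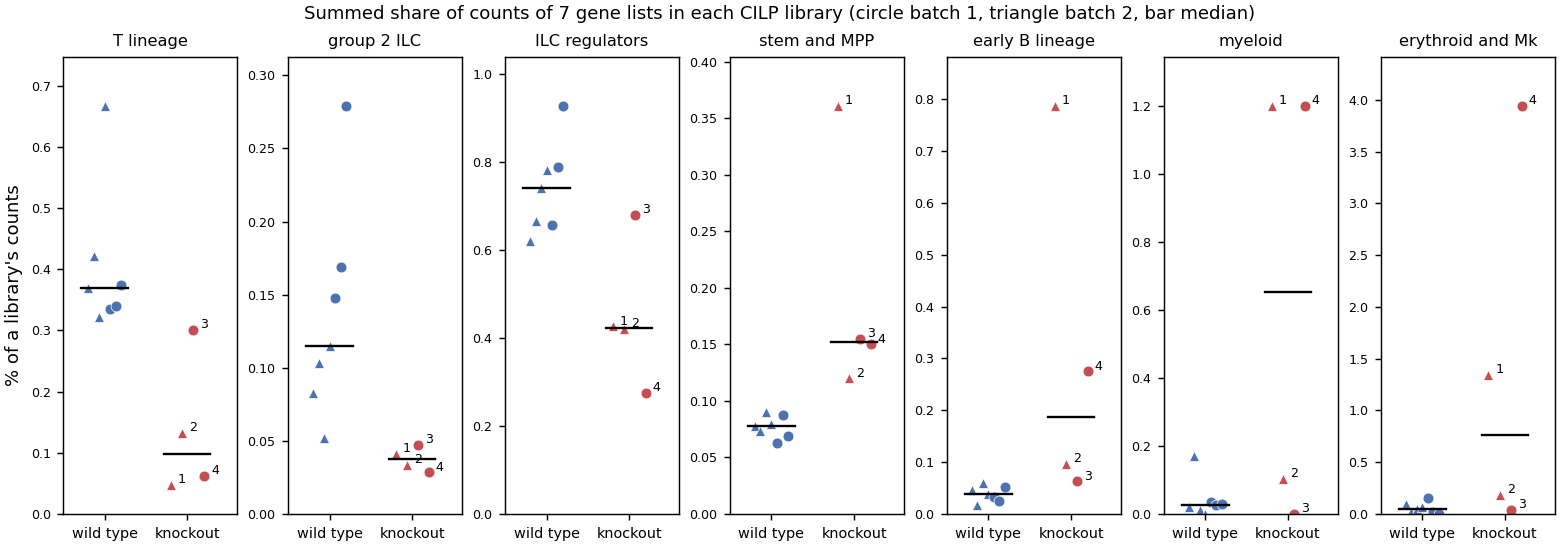
Percent of each CILP library's counts taken by 7 gene lists (wild type blue, Tcf7 knockout red with library numbers, circles batch 1, triangles batch 2, bars group medians; each panel has its own scale from 0). Knockout libraries 1 and 4 are the highest for myeloid (1.2% each) and erythroid and megakaryocyte (Mk) markers, and all 4 knockout libraries lie below the wild type for T lineage and group 2 ILC genes.

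Across 10972 genes tested, 46 were called higher in knockout CILP (0.419% of genes) and 9 lower (0.082%), at an adjusted p under 0.05. Over all genes the median log2 fold change came to −0.32 with TMM and −0.06 with DESeq2 size factors, and changes below are read against the TMM value. Without knockout libraries 1 and 4, 3 genes were called (0.0273%), all higher, with 620 genes at an unadjusted p under 0.05. All 9 lower genes kept their direction there, as did 39 of 44 higher genes that were tested. The libraries of this fit were also used to call these genes, so a kept direction is not separate support. Some of these genes, such as Blnk, had no counts left in either group, so their direction has no meaning. Leaving out any 1 wild-type library left 7 to 25 calls, and leaving out knockout library 1, 2, 3 or 4 left 9, 49, 58 or 31. Bcl11b was called lower in all 11 of these fits, and Blk, Lmo2, Tifa and Cybb were called higher in all 11.

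Bcl11b, Igfbp4, Lmo4, Arg1, Xkrx, Skap1, Cd27 and Trbc1 were among the 9 genes that fell. For 7 of the 9, all knockout libraries lay below all wild-type libraries, a pattern shared by 75 of all genes tested (0.684%). All 9 were lower within each batch.

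Bcl11b (GRCm38.p6 chr12:107910403-108004145) is required for T lineage commitment and for group 2 ILC. It was at 0, 28.5, 0 and 0 CPM in knockout libraries 1 to 4, the counts in library 2 numbering 9. In the wild type it ranged from 159.9 to 920.3 CPM (median 468.5). No knockout library reached the lowest wild-type library. The fitted log2 fold change was −5.33 ± 0.94 (adjusted p = 0.000446). In an exact permutation test of log2(CPM + 1) the difference in means was −7.64 (p = 0.00303, the smallest possible). Within batch 1 alone the log2 fold change of Bcl11b was −9.11 (adjusted p = 2.04e-05) and within batch 2 alone −4.78 (adjusted p = 0.442). Without knockout libraries 1 and 4 it was −4.79 and not called (adjusted p = 0.0957).

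Igfbp4, which encodes a binding protein of insulin-like growth factors, was at 20, 98.3, 293.6 and 249 CPM in knockout libraries 1 to 4. The wild type ranged from 457.3 to 2657.4 CPM (median 1757). The groups did not overlap, and the log2 fold change was −3.34 ± 0.66 (adjusted p = 0.00338). Lmo4, a LIM-domain cofactor of transcription factors, was at 200, 507.1, 957.3 and 160.1 CPM. It was at 1682.7 to 3528.4 CPM (median 2552) in the wild type. Library 3 came nearest to the wild type, without reaching it (log2 fold change −2.49 ± 0.54, adjusted p = 0.0144). Igfbp4 was not called without knockout library 1 (adjusted p = 0.0518). Lmo4 was not called without knockout library 1 or 4 or wild-type library 2 (adjusted p up to 0.0952).

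Arg1, Xkrx and Skap1 had no counts in any knockout library. Arg1, which encodes arginase 1 and is expressed in ILC progenitors and group 2 ILC, was at 0 to 475.5 CPM (median 115.3) in the wild type. It was at least 24.9-fold lower in the knockout, taking 3 counts over the knockout group (6 CPM) as the limit (adjusted p = 0.037). One wild-type library, number 3, also had none. Xkrx, an XK-related membrane protein gene, was at 68.9 to 602.9 CPM (median 97.9) in the wild type and at least 34.5-fold lower in the knockout (adjusted p = 0.037). Skap1, an adaptor of T cell receptor signalling, was at 18.3 to 176.3 CPM (median 132.9) and at least 16.5-fold lower (adjusted p = 0.0491). Of the 11 fits that leave out a library, Arg1 was called in 3 (adjusted p up to 0.0996), Xkrx in 1 (up to 0.111) and Skap1 in 0 (up to 0.18).

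Cd27, which encodes a costimulatory receptor, had 1 count in knockout library 3 and none in the others. It was at 13.8 to 310.9 CPM (median 103.1) in the wild type. The wild-type mean CPM was 68.7 times the rate that this 1 count gives over the pooled knockout totals, with a 95% counting interval of 12.3 to 2712 (adjusted p = 0.0492). Trbc1, which encodes a constant region of the T cell receptor β chain, differed between the batches as well. In batch 2 it was at 839.8 and 763.8 CPM in the knockout and at 2332.4 to 5494.8 CPM in the wild type. In batch 1 both knockout libraries were at 0 and the wild type was at 83.1 to 91.5 CPM. The 2 genotypes were separate within each batch and overlapped across batches (log2 fold change −2.67 ± 0.70, adjusted p = 0.0492). Trbc1 and Trbc2 are near-identical, so the split of reads between them is uncertain. Cd27 and Trbc1 were called in 0 of the 11 fits that leave out a library (adjusted p up to 0.197 and 0.18).

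**Figure D2:**
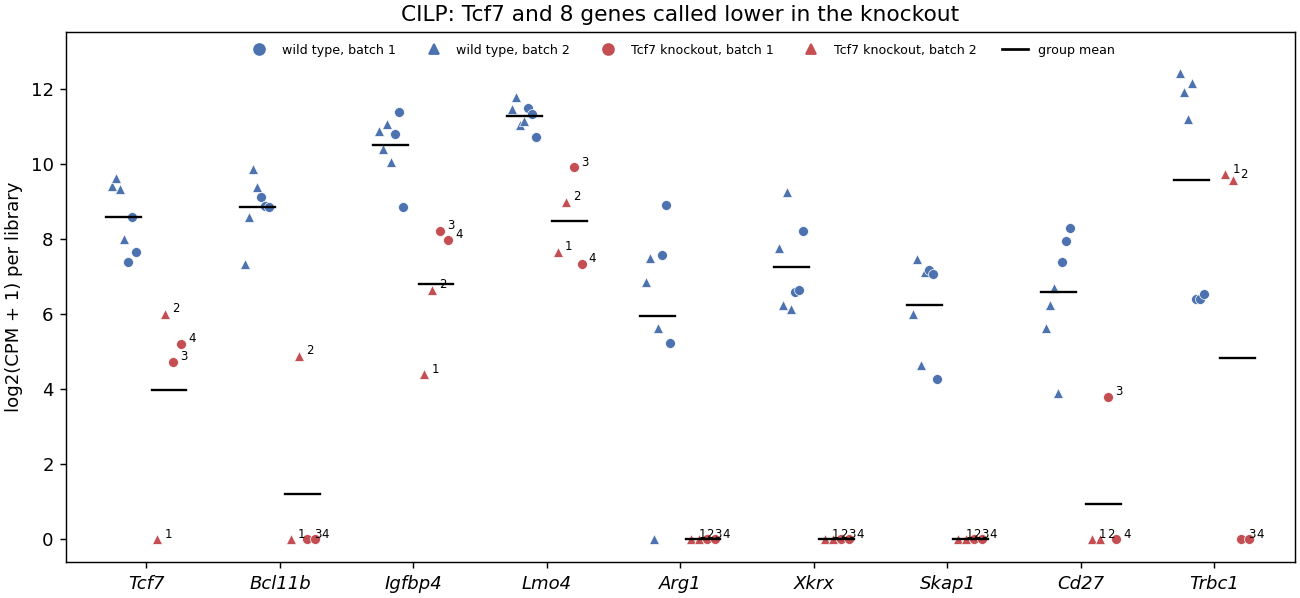
Levels of Tcf7 and of 8 genes called lower, as log2(CPM + 1) in each CILP library (wild type blue, Tcf7 knockout red with library numbers, circles batch 1, triangles batch 2, bars group means). Arg1, Xkrx and Skap1 are at 0 in all 4 knockout libraries, and Trbc1 shows the gap between batches.

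Promoters of genes that fell together are shown because TCF-1 binds a known core motif, written here as CTTTGAA or CTTTGAT and searched on both strands. RefSeq windows of GRCm38.p6 from 250 bases before to 50 after a start site were at hand for 5 of the 9 lower genes (Bcl11b, Cd27, Igfbp4, Lmo4 and Xkrx). The motif was present in the windows of Bcl11b and Cd27, and not in those of Igfbp4, Lmo4 or Xkrx. Per gene, it was present for 3 of 31 genes called higher (9.68%), for 7.31% of the genes tested that have a window and for 9.88% of all genes that have one. Per window, it was present in 8.65% of 32851. These matches describe letters and not binding. The Bcl11b window, on the minus strand at chr12:108003365-108003664, holds its match from position −89 relative to the start site, and the Cd27 window, on the minus strand at chr6:125236978-125237277, from position 15. Capitals mark the motif, which in Cd27 is on the opposite strand and so reads as its reverse complement.
Bcl11b: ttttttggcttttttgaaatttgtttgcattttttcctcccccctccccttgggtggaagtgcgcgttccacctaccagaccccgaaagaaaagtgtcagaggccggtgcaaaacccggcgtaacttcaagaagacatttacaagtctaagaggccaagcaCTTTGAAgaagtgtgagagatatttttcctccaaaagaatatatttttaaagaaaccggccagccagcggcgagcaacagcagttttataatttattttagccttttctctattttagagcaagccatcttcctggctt
Cd27: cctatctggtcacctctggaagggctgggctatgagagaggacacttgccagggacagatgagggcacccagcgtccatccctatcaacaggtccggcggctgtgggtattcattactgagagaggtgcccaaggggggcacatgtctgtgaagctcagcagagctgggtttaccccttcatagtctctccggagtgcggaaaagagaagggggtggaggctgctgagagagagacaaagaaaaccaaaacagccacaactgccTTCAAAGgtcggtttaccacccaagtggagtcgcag

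Of 14 key regulators of ILC and lymphoid development, Bcl11b was called lower and Ebf1 higher, and 12 were not called. Gata3, a zinc finger factor needed by all helper-like ILC, was at 140.0, 459.6, 663.7 and 88.9 CPM in knockout libraries 1 to 4. It was at 912.3 to 4179.7 CPM (median 1923) in the wild type. The groups did not overlap, yet the log2 fold change of Gata3 did not pass (−2.44 ± 1.11, adjusted p = 0.411). It passed in 3 of 12 other settings, in limma-voom with quality weights (adjusted p = 0.0414), without a filter on low counts (adjusted p = 0.00526) and when only the compared groups were fitted (adjusted p = 0.0461).

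Id2, the inhibitor of E proteins that marks ILC commitment, was at 439.9, 751.2, 1876.3 and 231.2 CPM in the knockout. The wild type ranged from 79.6 to 2286.3 CPM (median 674.8), so all 4 knockout libraries lay within the wild-type range (adjusted p = 1). Zbtb16, which encodes PLZF, was at 40.0, 164.8, 242.5 and 0 CPM against 185.9 to 524.5 CPM (median 325.3), with an adjusted p of 0.62. Tox, an HMG-box factor of early ILC progenitors, was at 0, 478.6, 548.8 and 302.4 CPM against 337.4 to 930.1 CPM (median 620.9), with an adjusted p of 0.755. For Zbtb16 and Tox the knockout libraries 2 and 3 were nearer to the wild type than libraries 1 and 4.

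Rora, the nuclear receptor gene of group 2 ILC, was at 0, 50.7, 165.9 and 0 CPM against 23.7 to 365.8 CPM (median 223.7; adjusted p = 0.567). Ets1 was at 1019.8, 690.9, 408.4 and 17.8 CPM against 308.7 to 3268.6 CPM (median 681.7; adjusted p = 0.601), and Nfil3 was at no more than 12.8 CPM against 0 to 73.2 CPM (adjusted p = 0.657). The cytokine receptor gene Kit was at 979.8, 301.1, 740.3 and 106.7 CPM against 83.1 to 483.5 CPM (adjusted p = 0.694), and Flt3 had 1 count in the knockout and counts in 1 wild-type library. Lef1, the TCF-1 paralogue, was at 0, 60.2, 370.1 and 284.6 CPM against 0 to 95.2 CPM (median 48.3; log2 fold change 2.19 ± 1.33, adjusted p = 0.553). Libraries 3 and 4 exceeded every wild-type library for Lef1 and library 1 had none.

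Of 18 T lineage genes tested, 2 fell (Bcl11b and Cd27) and none rose, and the median log2 fold change was −1.67 (−1.76 with genes at 0 set to their bound) against −0.32 for all genes. Their summed share was 0.0476%, 0.133%, 0.301% and 0.0628% of counts in knockout libraries 1 to 4 and 0.322% to 0.667% in the wild type. The groups did not overlap with Bcl11b included. Without Bcl11b, knockout library 3 (0.301%) lay within the wild-type range of 0.244% to 0.606%. Lck, the kinase of T cell receptor signalling, was at 0, 155.3, 51.1 and 0 CPM against 201.2 to 587.4 CPM (adjusted p = 0.14). Cd3d was at 0 in all 4 knockout libraries and in 2 of 7 wild-type libraries (adjusted p = 0.154). Mature T cell markers had 1 of 6 members lower (Trbc1) and a median of −0.58, or 1 with genes at 0 set to their bound. Among them Trac, the constant region gene of the T cell receptor α chain, was at 299.9, 779.7, 0 and 0 CPM against 0 to 111 CPM (adjusted p = 0.566). Without knockout libraries 1 and 4 the median of T lineage genes was −1.13 against −0.18 for all genes, with 0 of 18 called.

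ILC regulators had 1 of 19 members lower (Bcl11b), none higher, and a median of −0.86. Ikzf3, which encodes the zinc finger factor Aiolos, was at 0, 44.4, 51.1 and 0 CPM against 119 to 487 CPM (adjusted p = 0.247). Group 2 ILC genes had 1 of 14 lower (Arg1) and 1 higher (Il1rl1), with a median of −1.29 that became 0.2 with genes at 0 set to their bound. Their summed share was 0.0284% to 0.047% in the knockout and 0.0522% to 0.279% in the wild type, without overlap. Icos, the inducible costimulator, was at 0, 34.9, 102.1 and 71.1 CPM against 174.5 to 1371.8 CPM (median 391.8; adjusted p = 0.108). Il17rb, a chain of the interleukin-25 receptor, was at 0, 104.6, 0 and 0 CPM against 106.9 to 227.5 CPM (adjusted p = 0.377). Il1rl1, the gene of the interleukin-33 receptor chain ST2, was called higher on 140.4 CPM in knockout library 3 and 6.3 CPM in library 2, with libraries 1 and 4 at 0 (adjusted p = 0.0492), and kept its call in 3 of the 11 fits that leave out a library. Its knockout counts numbered 13 in all, and 1 of 12 wells labelled as controls held 8.

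**Figure D3:**
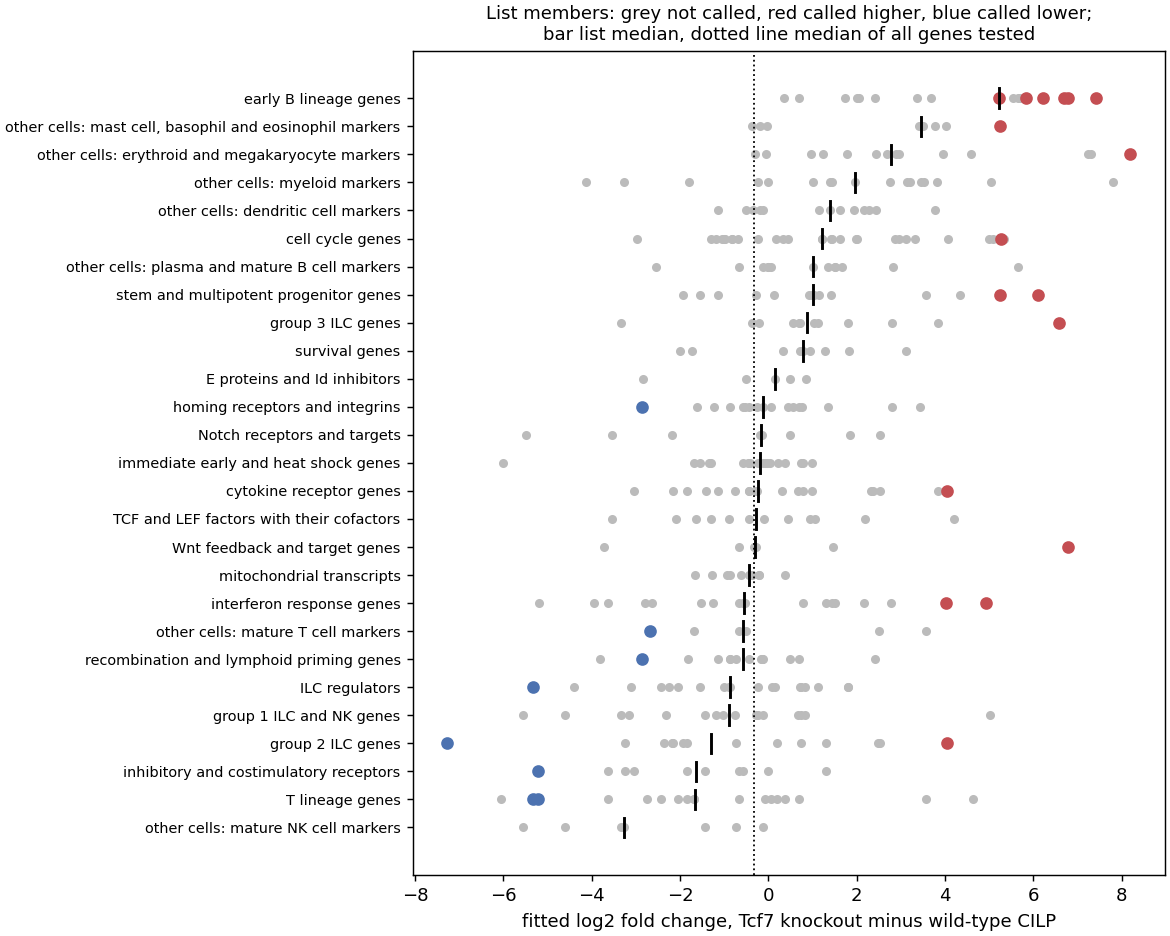
Fitted log2 fold change (Tcf7 knockout minus wild-type CILP) of each tested member of 27 gene lists, ordered by list median (bars). Red points were called higher and blue points lower; the dotted line is the median of all genes tested, −0.32. Values of genes with no counts in a group depend on the prior count of the fit. Early B lineage genes have the highest median, 5.22.

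The counts of genes that rose often came from single libraries. Of the 46, 21 had no count in any wild-type library, and 8 had counts in all 4 knockout libraries. Library 1 alone gave over 50% of the summed knockout CPM for 26 genes, and some single library did so for 41. In 7 of the 46 all knockout libraries lay above all wild-type libraries, against 25 of all genes tested (0.228%). The difference was positive in both batches for 34 of the 46.

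Blk, Tifa and Ncoa7 were among the 7 genes without overlap, with Prkce, Pram1, Cecr2 and Ffar2. Apart from Blk and Pram1 these names, and Ccr1 below, were chosen after their values were seen. Blk, a Src-family kinase of B cells, had no count in any wild-type library. In knockout libraries 1 to 4 it was at 160.0, 101.4, 89.3 and 160.1 CPM, at least 57.5-fold higher than 3 counts over the wild-type group (adjusted p = 0.00115). It was also called without knockout libraries 1 and 4 (adjusted p = 0.0292). Tifa, an adaptor of NF-κB signalling, was at 339.9, 63.4, 268 and 88.9 CPM, and 6 of 7 wild-type libraries had none (log2 fold change 5.58 ± 1.08, adjusted p = 0.00252). Ncoa7, a nuclear receptor coactivator gene, was at 459.9, 776.5, 663.7 and 942.7 CPM against 0 to 164.6 CPM (median 69.9; log2 fold change 3.20 ± 0.75, adjusted p = 0.0314). Ncoa7 was called in 4 of the 11 fits that leave out a library.

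Early B lineage genes held 6 of the 46 higher calls. Of 17 tested, Blk, Ebf1, Blnk, Spib, Igll1 and Vpreb3 rose and none fell, and the median log2 fold change was 5.22 (4.34 with genes at 0 set to their bound). Ebf1, the factor that specifies the B lineage, was at 679.8, 69.7, 0 and 0 CPM in knockout libraries 1 to 4 and had 1 count over the wild-type libraries. The knockout mean CPM was 252.9 times the rate that 1 count gives over the pooled wild-type totals, with a counting interval of 45.4 to 9989 (adjusted p = 0.0317). Both libraries with counts were of batch 2.

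Blnk, an adaptor of the B cell receptor, was at 140.0, 0, 0 and 53.4 CPM and absent from the wild-type counts (at least 21.7-fold higher, adjusted p = 0.0144). Spib, an Ets-family factor of B cells and plasmacytoid dendritic cells, was at 140.0, 19.0, 0 and 337.9 CPM against 0 to 11.9 CPM (adjusted p = 0.0307). Igll1, which encodes the λ5 chain of the surrogate light chain, was at 259.9, 152.1, 0 and 0 CPM and had no wild-type count (at least 46.3-fold higher, adjusted p = 0.0294). Library 3 had none of these genes. Vpreb3, a partner of the pre-B receptor, was at 1119.7, 174.3, 0 and 213.4 CPM against 0 to 22.3 CPM (log2 fold change 6.21 ± 1.47, adjusted p = 0.0428). When each library was left out in turn, Blnk was called in 9 of 11 fits, Igll1 in 5, Ebf1 and Spib in 4 each and Vpreb3 in 2.

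The list's summed share was 0.787%, 0.0973%, 0.0626% and 0.275% in knockout libraries 1 to 4, against 0.0178% to 0.0602% in the wild type. Libraries 1 and 4 were the highest, and library 3 was just above the wild-type range. In library 3, Cd79b gave 30 and the called gene Blk 7 of the list's 40 counts. Wild-type libraries had 0 to 64 counts of Cd79b. No separation of library 3 is claimed without Blk. Without libraries 1 and 4, 1 of 18 members was called, Blk, and the list's median was 2.27. Blnk had no counts left in that comparison. Markers of plasma and mature B cells took 0.0101% to 0.093% in the knockout and 0.00429% to 0.0375% in the wild type. Ighg1 and Fcer2a were at 0 throughout. None of the 13 tested was called.

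**Figure D4:**
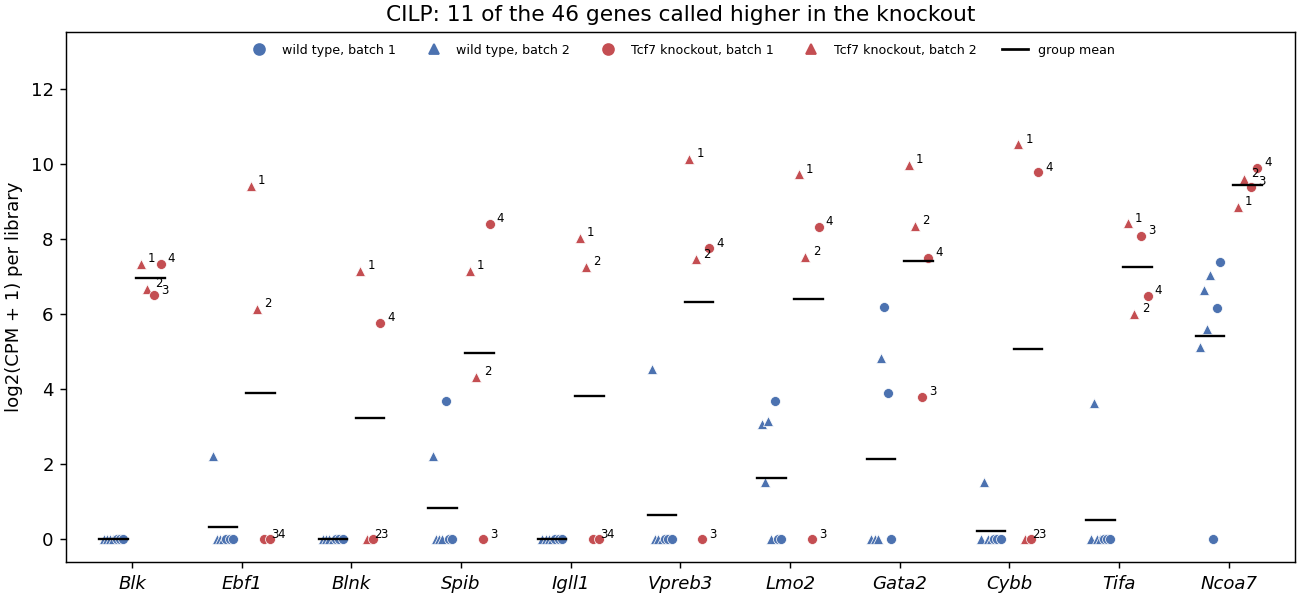
Levels of 11 genes called higher, as log2(CPM + 1) in each CILP library (wild type blue, Tcf7 knockout red with library numbers, circles batch 1, triangles batch 2, bars group means). Blk, Tifa and Ncoa7 are above all wild-type libraries shown in all 4 knockout libraries, and the others are at 0 or within the wild-type range in 1 or 2 of them.

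Stem and multipotent progenitor genes rose in 2 of 14 members, Lmo2 and Gata2, with a median of 1.01. Lmo2, a LIM-only cofactor of blood stem and progenitor cells, was at 839.8, 183.8, 0 and 320.1 CPM against 0 to 11.9 CPM (log2 fold change 6.11 ± 1.06, adjusted p = 0.000446). Gata2, a factor of stem cells, mast cells and basophils, was at 999.8, 326.5, 12.8 and 177.9 CPM against 0 to 71.2 CPM (log2 fold change 5.24 ± 1.25, adjusted p = 0.0321). Knockout library 3 did not exceed the wild type for either gene, and Gata2 was called in 5 of the 11 fits that leave out a library. Mast cell, basophil and eosinophil markers, a list that includes Gata2, took 0.0284% to 0.212% of counts in the knockout and 0.00473% to 0.515% in the wild type. Knockout library 2 was the highest of the knockout, with 470 counts of Mcpt8 and 114 of Prss34. Wild-type library 5 was the highest of the wild type, with 302 and 27. Gata2 itself gave 50 of 52, 103 of 917, 1 of 37 and 10 of 14 of the list's counts in knockout libraries 1 to 4. Cpa3, also of this list, had 0, 200, 22 and 1 counts there and 2 to 89 in the wild type. Knockout library 2 is among those kept when libraries 1 and 4 are left out. The summed share of stem and multipotent progenitor genes was 0.12% to 0.361% in the knockout and 0.0626% to 0.0903% in the wild type, without overlap with Lmo2 and Gata2 included. In knockout library 2, the lowest of the knockout, these 2 called genes gave 58 and 103 of the list's 518 counts. No separation is claimed without them.

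Cybb, which encodes the catalytic subunit of the phagocyte NADPH oxidase, was at 1459.6 and 871.5 CPM in knockout libraries 1 and 4 and at 0 in libraries 2 and 3. It had 1 count over the wild-type libraries. The knockout mean CPM was 786.5 times the rate of that count over the pooled wild-type totals, with a counting interval of 141 to 31070 (adjusted p = 5.76e-05). Its counts came from the 2 libraries with the highest myeloid share. Without them the fitted log2 fold change was −0.86, a value that rests on 1 wild-type count and the prior count of the fit. Socs2, a feedback inhibitor of cytokine signalling, was at 779.8, 3.2, 63.8 and 0 CPM (adjusted p = 0.0282). Hba-a1, an α-globin gene with a near-identical copy, was at 2199.5, 110.9, 0 and 0 CPM (adjusted p = 0.0314). For both genes library 1 was far above the others. The copy, Hba-a2, was at 7398.2, 301.1, 0 and 28190.8 CPM, highest in library 4, and did not pass (adjusted p = 0.0693). Socs2 and Hba-a1 were each called in 5 of the 11 fits that leave out a library.

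Ccr1, a chemokine receptor gene, and Il23r, a chain of the interleukin-23 receptor of group 3 ILC, were high in other libraries. Ccr1 was at 0, 503.9, 102.1 and 0 CPM against 0 to 14 CPM (log2 fold change 5.74 ± 1.39, adjusted p = 0.037). It was called without libraries 1 and 4 as well (adjusted p = 0.0328). Il23r was at 0, 82.4, 153.2 and 71.1 CPM with no wild-type count (at least 34.5-fold higher, adjusted p = 0.0492). Of the 11 fits that leave out a library, Ccr1 was called in 3 and Il23r in 0 (adjusted p up to 0.13 for Il23r). The third gene called without libraries 1 and 4 was an identifier with no symbol in the annotation, at 2843 CPM in library 2 and 0 in library 3.

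CLP were available from 5 Tcf7 knockout and 8 wild-type libraries, and the knockout effect was compared between both stages by an interaction term. The effect differed for 5 genes (0.0456% of those tested), with 996 at an unadjusted p under 0.05. Bcl11b was at 0.745 ± 2.11 CPM in wild-type CLP and 9.12 ± 8.52 CPM in knockout CLP (mean ± SD), so that it was near 0 in both before the CILP stage. The log2 effect in CILP minus that in CLP was −7.79 ± 1.42 (adjusted p = 0.00314). Lmo4 was at 107 ± 45.5 and 165 ± 101 CPM in wild-type and knockout CLP, and its effects differed by −3.07 ± 0.68 (adjusted p = 0.038).

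Blk, Lmo2 and Cybb were expressed in CLP of both genotypes. Blk was at 84.2 ± 83.1 CPM in wild-type and 42.2 ± 22.1 CPM in knockout CLP, against 127.7 ± 37.6 CPM in knockout CILP. Its effects differed by 8.19 ± 1.69 (adjusted p = 0.0255), a size that depends on the prior count of the fit because wild-type CILP had no count. Lmo2 was at 351 ± 190 and 256.5 ± 392 CPM in CLP, against 336 ± 361 CPM in knockout CILP, with a difference of 6.27 ± 1.38 (adjusted p = 0.038). Cybb was at 96.7 ± 122 and 163 ± 120 CPM in CLP, against 583 ± 715 CPM in knockout CILP, with a difference of 7.81 ± 1.63 (adjusted p = 0.0261). The size for Cybb likewise rests on 1 wild-type CILP count. The other B lineage genes called higher in knockout CILP were also present in wild-type CLP, Blnk at 558 ± 245 CPM, Vpreb3 at 252 ± 152 CPM and Spib at 199 ± 239 CPM. Without knockout CILP libraries 1 and 4, 0 genes were called by edgeR for the difference between stages, with 694 at an unadjusted p under 0.05. Without knockout CLP library 5 the count was also 0, with 989. Of the 46 higher genes, 25 (54.3%) had a mean of at least 20 CPM in wild-type CLP, against 66.2% of all genes tested.

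Among all wild-type populations Tcf7 was highest in CILP, at 445 ± 253 CPM, followed by the libraries labelled ILCP at 198 ± 304 CPM (n = 3), whose range of 8.41 to 548 CPM overlapped that of CILP. It was at 36.3 ± 22.8 CPM in the libraries labelled a4b7 CLP (n = 5), 18.1 ± 27.1 CPM in ILC2P (n = 8) and 1.02 ± 2.89 CPM in CLP. Bcl11b was at 551 ± 313 CPM in wild-type ILC2P, and at 107 and 186 CPM in the 2 knockout ILC2P libraries. These levels are a description and were not tested here.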

How the data were processed

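CEL-seq libraries of 100 sorted mouse bone marrow cells were read as the gene counts the authors deposited in 2 tables, 1 per batch. The deposited counts are unnormalized reads per mouse Entrez gene. Per the submitters' processing notes, CASAVA 1.8.2, featureCounts, limma, edgeR 3.8.2 and 3.22.0 and mm10 were used. An aligner was not named there. Without molecular identifiers in the labels, intervals cover counting error only. Symbols came from RefSeq GRCm38.p6 for 25275 of 27179 identifiers (92.99%).

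Counts of 2 technical repeats were added to wild-type CILP. The main test was edgeR 4.0.16 (R 4.3.3), with quasi-likelihood, robust fit, TMM and a filter (filterByExpr, minimum counts 10 and 15), over 47 libraries of all wild-type, Tcf7 and Id2 knockout groups with batch as a term and Benjamini-Hochberg adjustment. The biological coefficient of variation was 109.7%. Printed errors of log2 fold changes are SE. Folds for genes at 0 use a floor of 3 counts over the group. The script was checked on simulated counts. Alternatives used limma 3.58.1, DESeq2 1.42.0 and other sample sets.

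The genes named were the key regulators, the called genes with the largest changes (up to 12 per direction, at least 20 CPM and the same sign in both batches), up to 4 per list and all called list members, and genes called for the interaction; results for some of these are not reported here. The comparison, lists and tests were chosen with earlier results of these data known.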

Additional observations from a re-analysis of the deposited data

Results flagged for a closer look

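Of 104 groups of libraries examined for a lone high or low library, 28 had one. The rule's rate of 1 in 20 holds for normally distributed values, so it gives no chance baseline for these genes and shares. Many of these genes are at or near 0 in most libraries of the group, which leaves a single library with counts. No explanation was tested.

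Among the lower genes and regulators, Bcl11b stood out in knockout library 2 (28.5 CPM) and Cd27 in knockout library 3 (12.8 CPM), where the other knockout libraries had none. In wild-type CILP, Arg1 was highest in library 6 (475.5 CPM), Xkrx in library 3 (602.9 CPM), Ets1 in library 3 (3268.6 CPM), Il7r in library 2 (3132.1 CPM) and Icos in library 7 (1371.8 CPM). Flt3 had counts in wild-type library 1 (26.0 CPM) and knockout library 2 (3.2 CPM) and no others.

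Among the higher genes, knockout library 1 stood apart for Ebf1 (679.8 CPM), Socs2 (779.8 CPM) and Hba-a1 (2199.5 CPM). Knockout library 4 did so for Cdk1 (355.7 CPM) and knockout library 3 for Il1rl1 (140.4 CPM). A single wild-type library stood apart at a low level for Ebf1 (3.7 CPM), Cybb (1.9 CPM), Tifa (11.4 CPM), Spib (11.9 CPM), Vpreb3 (22.3 CPM), Gata2 (71.2 CPM), Socs2 (3.8 CPM), Ccr1 (14 CPM), Hba-a1 (3.8 CPM) and Il1rl1 (6.9 CPM).

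In shares of counts, stem and multipotent progenitor genes were highest in knockout library 1 (0.361%). Wild-type library 4 was highest for T lineage genes (0.667%), wild-type library 2 for myeloid markers (0.17%) and wild-type library 5 for mast cell, basophil and eosinophil markers (0.515%).

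The knockout effect differed between CILP and CLP for 5 genes in edgeR's interaction test. The log2 effect in CILP minus that in CLP was −7.79 for Bcl11b, −3.07 for Lmo4, 6.27 for Lmo2, 7.81 for Cybb and 8.19 for Blk. With 1 wild-type CILP count for Cybb and none for Blk, the sizes of these 2 depend on the prior count of the fit.

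The wild-type CILP library that the submitters call an outlier was left out of the comparisons. It held 24 counts of Bcl11b and 5 of Tifa among 47089, and the highest of 12 control wells held 2 of Bcl11b and 0 of Tifa. For other genes the highest control well held 33 counts of Gata3, 28 of Igfbp4, 8 of Il1rl1 and 6 of Spib. It held 0 of Tcf7, Lmo4, Blk and Lmo2. Knockout libraries 1 and 4 held 7 and 5 counts of Gata3. The part of such counts in the results was not tested.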

How the results depend on the processing

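The count of 55 genes called for the knockout was 87 with DESeq2 size factors, 93 with DESeq2, 90 with limma-voom, 96 without a filter, 19 without a batch term, 10 when only the compared groups were fitted, and 3 without knockout libraries 1 and 4. Batch 2 alone gave 0 calls in edgeR, with 381 genes at an unadjusted p under 0.05; DESeq2 was not run on that batch. Leaving out 1 library gave 7 to 58. The other settings stayed within 1.5 times in count, which does not mean that the same genes were called. Of the 65 calls in batch 1 alone, 12 were among the 55. DESeq2 shared 30 genes with the 55 and limma-voom 22. DESeq2 size factors and the fit without a filter shared 53 each. The split was 42 higher and 48 lower with limma-voom and 2 higher and 8 lower with only the compared groups, against 46 and 9. With only the compared groups the filter kept 3695 genes, among them 3 of the 46 higher and all 9 lower genes. The rest of the higher genes were not tested there, so that split does not show that their calls were lost. The count of 5 genes whose effect differed between CILP and CLP also moved. It was 10 with DESeq2 size factors, 21 with DESeq2, 39 with limma-voom, 31 without a filter and 3 without a batch term. It was 14 with only the compared groups and 20 with batch 1 alone. It was 0 without knockout libraries 1 and 4, and 0 with batch 2 alone (545 at an unadjusted p under 0.05 in edgeR). It was 0 to 8 when 1 library was left out. The causes were not tested.

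Fitted fold changes of 11 genes changed sign under some setting. Without knockout libraries 1 and 4 the log2 fold change was 0.44 for Il7r, −0.86 for Cybb, −0.01 for Blnk, −6.32 for Ly6d, −0.07 for Bub1 and −1.02 for Camp. There Blnk had no counts in either group, so its sign has no meaning. Cybb, Camp and Ly6d had no knockout counts left, and Cybb and Camp had 1 wild-type count each. Their values depend on the prior count of the fit. The log2 fold change of Id2 was −0.06 with limma-voom, −0.14 without a batch term, −0.6 in batch 1 alone, −0.02 without wild-type library 2 and −0.42 without knockout library 2, the lowest of the fits that leave out a library, of which the highest was 0.57. That of Flt3 was 0.6 with limma-voom, 1.61 without technical repeats and 1.59 without wild-type library 1, with −2.3 as the lowest of those fits. Lef1 was at −0.53 and Cdk1 at −3.47 in batch 2 alone, and Ccnb1 at −3.8 in batch 1 alone. Bcl11b and Tcf7 kept their direction under every setting run. No paired analysis was possible because the replicate numbers only name libraries in accession order. With 44089 to 63853 counts in 3 of 4 knockout libraries, a gene at 0 counts could be present at a low level.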

Other observations

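Group 3 ILC genes, which encode the interleukin-23 and interleukin-1 response of these cells among others, had 1 of 12 members called higher (Il23r), none lower, and a median log2 fold change of 0.88. Il1r1 was at 20, 434.2, 408.4 and 88.9 CPM in knockout libraries 1 to 4 and at 6.9 to 54.9 CPM in the wild type (adjusted p = 0.119 in edgeR). Libraries 2 and 3 were the highest. Of 16 group 1 ILC and NK genes none was called. Gzmb, the cytotoxic granule protease gene, was at 0, 22.2, 255.3 and 231.2 CPM against 0 to 14 CPM (adjusted p = 0.193 in edgeR). Of 9 survival genes none was called, although Bcl2 was at 180.0, 887.4, 982.8 and 284.6 CPM in the knockout and at 1042 to 2472.3 CPM in the wild type, without overlap (adjusted p = 0.197 in edgeR).

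Of 29 cell cycle genes 1 was called, Cdk1, at 0, 0, 51.1 and 355.7 CPM against 0 to 23.8 CPM (adjusted p = 0.0423 in edgeR). Ccnb1 was instead high in libraries 1 and 2 (2279.5 and 259.9 CPM) and at 0 in libraries 3 and 4 (adjusted p = 0.0672 in edgeR). Of 18 interferon response genes 2 were called higher. Rsad2 was at 759.8, 47.5, 0 and 693.7 CPM and Ifi27l2a at 180.0, 60.2, 0 and 106.7 CPM, so that library 3 had neither. Of 6 Wnt feedback and target genes 1 was called higher, Lgr5, on 239.9 CPM in library 1 and 6.3 CPM in library 2. When single libraries were left out, Cdk1 was called in 4 of 11 fits, Rsad2 and Ifi27l2a in 2 each and Lgr5 in 3 of the 10 that tested it. Axin2, the Wnt feedback gene, was at 3.2 CPM in library 2 and 0 in the other knockout libraries, and at 0 to 90.9 CPM in the wild type (adjusted p = 0.373 in edgeR).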
